A study of Mus musculus and Canis lupus familiaris with 12 samples.

Results

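The response of DLM8 cells to omacetaxine was read from all genes of the mouse table, as the difference between 3 libraries of treated cells and 3 libraries of untreated cells, 6 of the 12 libraries of the series. DLM8 is a mouse osteosarcoma line, labelled as wild type in genotype, that was grown in DMEM with 10% serum, plated overnight and given fresh medium the next day. The OMX group had 50 nM omacetaxine (OMX) for 6 hours. The untreated group had none. Its labels say untreated, whereas the treatment protocol names a DMSO control. Of 78317 genes in the table, 17109 had enough counts to be tested, and 97 gene lists were used to describe families and functions other than the NF-kB and immediate early genes that are best known for this kind of treatment.

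Omacetaxine, also called homoharringtonine, is a plant alkaloid that binds the ribosome and stops the first steps of peptide elongation, so that new protein is no longer made. A cell then loses its short-lived proteins first, and transcripts of many inducible genes are known to accumulate when protein synthesis is blocked. A bone tumour cell of the osteoblast lineage is also a secretory cell, which makes collagen and other matrix proteins in the endoplasmic reticulum and draws on glucose, amino acids and lipid synthesis to do so.

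Poly(A)-selected libraries held 9099313 to 11392715 counts each. The first principal component of the 6 libraries held 66.4% of their variance and separated the OMX from the untreated libraries. Whether each replicate was its own culture is not said in the labels, and the spread behind every p-value may then be technical. With 3 libraries against 3 no exact permutation test can go below 0.1. Levels are CPM, the counts of a row scaled to a common library size with TMM factors. Values after ± are the SD over 3 libraries for CPM and the standard error for log2 fold changes, and adjusted p is that of edgeR's quasi-likelihood test, adjusted after Benjamini and Hochberg across every gene tested. Of 10 osteoblast markers 7 passed 1 CPM in every library. Of 8 macrophage markers 4 were at 0 in every library and only Csf1r passed 1 CPM in all of them, so that the list summed to 124 to 209 CPM with OMX and 118 to 126 CPM untreated. Its part in the immune genes below was not tested. Summed lymphocyte, epithelial and neuron markers stayed at or under 5.26 CPM. Endothelial markers summed to 4.92 to 11.3 CPM with OMX and 1.39 to 3.24 CPM untreated. Chondrocyte markers, of which Col2a1 was the highest, summed to 261 to 415 CPM with OMX and 731 to 1036 CPM untreated.

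The strand on which reads were counted limits every level. Where an annotated coding gene and a non-coding gene overlap on opposite strands (they are said to face each other), more counts lay in the non-coding row in 761 of 877 pairs (86.8%), by a median of 6.47 times. Counts of mt-Nd6, whose strand of the mitochondrial genome carries no other protein gene, were 49.9 to 94.1 times as high as the median of the 12 remaining mitochondrial protein rows. When both rows of a pair were called (237 pairs), the direction matched in 232. In most of the 877 pairs more counts thus lay in the row opposite to the coding gene. A row may therefore hold reads of the gene it faces. The level of a row cannot be read as the level of its mRNA, and whether its fold change is that of the mRNA was not tested. Named genes that face another annotated gene are marked, with the counts of the facing row relative to their own.

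After OMX 3311 genes were higher (19.4% of those tested) and 2726 were lower (15.9%), so that 35.3% changed. Changes over 2-fold were seen in 2384 genes that rose (13.9%) and 1288 that fell (7.53%). In 49% of all genes the OMX and untreated libraries did not overlap. The median log2 fold change of all genes was 0.02. This balance rests on TMM scaling: with library size alone 66.6% of the calls were higher against 54.8% here, and the median of all genes moved to 0.16.

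Falls were more frequent among rows with more counts, and rises varied less. When tested genes were put in 5 bins of equal size by level, 14.9% of the lowest bin were higher and 2.98% lower, and 25.3% of the highest bin were higher and 31.2% lower. The plot of calls by level shows both shares in each bin. Counts of called list members are therefore given beside the share of calls among all genes of the bin that holds the list's median member, written as genes of that level. By type, 28.4% of 2430 long non-coding genes were higher, against 15.1% of 11047 protein-coding genes, while the lower shares were 16.1% and 16.4%. Non-coding rows may hold reads of coding genes they face, and these shares were not matched for level. Whether the difference belongs to the type of gene was not tested. The X chromosome stood out among the chromosomes: 15 of its 335 tested genes were higher (4.48%) and 89 were lower (26.6%), with a median log2 fold change of -0.42. Among chromosomes 1 to 19 the lowest share of higher genes was 14.4%, on chromosome 14.

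**Figure D1:**
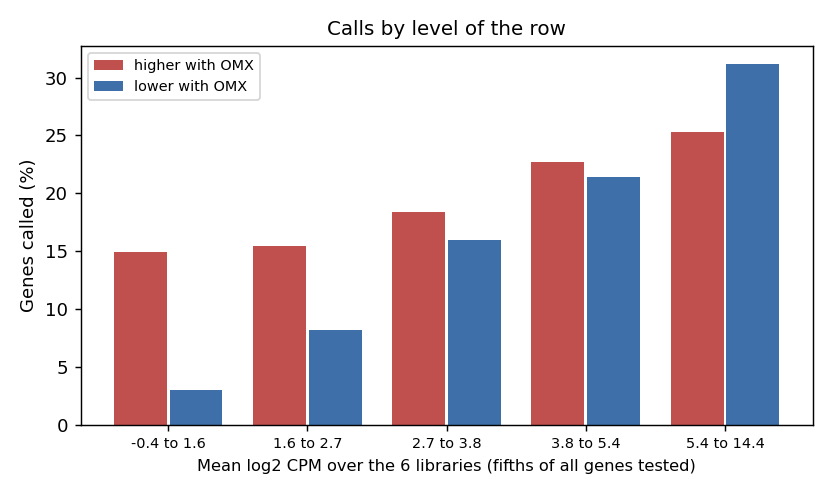
Share of tested genes called higher or lower after OMX (y axis, percent) in 5 bins of mean log2 CPM over the 6 libraries (x axis, range of each bin). The share called lower climbs through the bins to 31.2%, while the share called higher lies between 14.9% and 25.3%.

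Outside the best known families, the largest rises were in genes of cell-to-cell signalling, transcription and immunity. Dll4, a ligand of Notch receptors, held 41.8, 36.5 and 33.9 CPM with OMX, against 0, 0.329 and 0.465 CPM untreated (log2 fold change 7.17 ± 0.43, adjusted p = 2.82e-07). It faces Gm14207, whose row held 13.6 times its counts and also rose (log2 fold change 7.99). Icosl, the ligand of the T-cell co-stimulator ICOS, held 52.4, 42.7 and 56.9 CPM with OMX, against 2.04, 1.32 and 1.86 CPM untreated (log2 fold change 4.85 ± 0.25, adjusted p = 7.18e-08). Map3k14, the kinase NIK that starts the non-canonical NF-kB pathway, held 102, 44.7 and 45.8 CPM with OMX, against 2.41, 1.096 and 1.51 CPM untreated (log2 fold change 5.23 ± 0.40, adjusted p = 1.99e-06). Ikbke, an IKK-related kinase of interferon induction, held 19.5, 21.2 and 26.8 CPM with OMX, against 0.371, 0.986 and 1.39 CPM untreated (log2 fold change 4.64 ± 0.38, adjusted p = 2.88e-06). Its facing row Gm28913 held 9.898 times the counts, with a log2 fold change of 0.65.

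Transcription factors shared these ranks. Foxs1, a forkhead factor, held 52.9, 69.9 and 76.5 CPM with OMX, against 1.95, 0.877 and 2.09 CPM untreated (log2 fold change 5.33 ± 0.29, adjusted p = 1.31e-07). Meox1, a homeobox factor of the somites, held 19.8, 17.8 and 26.6 CPM with OMX, against 0.186, 0.658 and 0.9296 CPM untreated (log2 fold change 5.202 ± 0.41, adjusted p = 2.46e-06). In both genes the groups did not overlap, which the choice of these genes required. Dusp15, a dual-specificity phosphatase, held 57.8, 94.2 and 121 CPM with OMX, against 0.743, 5.48 and 2.56 CPM untreated (log2 fold change 4.98 ± 0.48, adjusted p = 1.04e-05). Shisal1, named for its likeness to shisa membrane proteins, held 16.4, 68.6 and 82.95 CPM with OMX, against 1.86, 0.438 and 1.86 CPM untreated (log2 fold change 5.31 ± 0.61, adjusted p = 4.18e-05), with OMX replicate 1 at the low end. Zmynd15, a zinc finger repressor known from male germ cells, held 132, 122 and 117 CPM with OMX, against 3.62, 4.71 and 3.83 CPM untreated (log2 fold change 4.93 ± 0.18, adjusted p = 1.04e-08). It faces the chemokine gene Cxcl16, whose row held 0.234 times its counts and had a log2 fold change of 2.98. Whether the Zmynd15 row holds reads of Cxcl16 was not tested, so its rise cannot be assigned to the repressor gene. Erdr1y was uneven: it held 165, 2.17 and 160.1 CPM with OMX, against 1.3, 0.438 and 1.16 CPM untreated (log2 fold change 6.78 ± 1.19, adjusted p = 0.000977), so OMX replicate 2 lay just above the untreated libraries. This gene has near-identical copies on the sex chromosomes, and reads may be split among them. Gbp5 and Txnip, the other genes of this rank, are described with their families.

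The 12 largest falls, picked in the same way, included genes of glucose uptake, lipid synthesis, the endoplasmic reticulum and the osteoblast programme. Slc2a1, the glucose transporter GLUT1, held 1.98, 9.25 and 5.81 CPM with OMX, against 46.97, 44.5 and 38.1 CPM untreated (log2 fold change -2.92 ± 0.38, adjusted p = 0.000109). It faces Gm12868, whose row held 5.79 times its counts and fell as well (log2 fold change -4.41). Hk2, the hexokinase that traps glucose in the cell, held 7.31, 5.004 and 2.08 CPM with OMX, against 47.3, 27.8 and 30.7 CPM untreated (log2 fold change -2.87 ± 0.37, adjusted p = 9.73e-05). Acly, which splits citrate to give acetyl-CoA for lipids, held 9.88, 9.44 and 5.81 CPM with OMX, against 52.7, 59.3 and 55.1 CPM untreated (log2 fold change -2.73 ± 0.22, adjusted p = 2.6e-06). The groups of these genes were apart, which their choice required. Vldlr, a lipoprotein receptor, held 2.17, 1.32 and 3.11 CPM with OMX, against 15.9, 19.9 and 18.6 CPM untreated (log2 fold change -3.04 ± 0.32, adjusted p = 2.2e-05). Hyou1, a chaperone of the endoplasmic reticulum, held 28.4, 13.4 and 9.97 CPM with OMX, against 94.3, 106 and 121 CPM untreated (log2 fold change -2.63 ± 0.31, adjusted p = 5.29e-05). Sel1l, the adaptor of the ligase that removes misfolded proteins from that compartment, held 4.35, 2.27 and 1.66 CPM with OMX, against 11.9, 21.3 and 19.99 CPM untreated (log2 fold change -2.67 ± 0.37, adjusted p = 0.000182).

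Of the lineage genes at this end, Tmem119, which is needed for bone formation, held 11.1, 7.36 and 4.15 CPM with OMX, against 63.6, 41.9 and 45.4 CPM untreated (log2 fold change -2.74 ± 0.31, adjusted p = 3.6e-05). Hand1, a basic helix-loop-helix factor of heart and limb, held 10.4, 12.3 and 11 CPM with OMX, against 81.04, 71.3 and 71.3 CPM untreated (log2 fold change -2.73 ± 0.17, adjusted p = 3.8e-07). Sfrp2, a secreted modulator of Wnt signalling, held 18.2, 21.9 and 14.7 CPM with OMX, against 217, 135 and 124 CPM untreated (log2 fold change -3.12 ± 0.24, adjusted p = 1.73e-06), and its facing row Gm26771 held 11.6 times the counts with a log2 fold change of -3.47. Each of these was several times lower in every OMX library, and was picked for a large fall. The remaining falls were of rows that outweigh a facing gene. Lrp2bp held 3.26, 1.98 and 3.22 CPM with OMX, against 45.1, 31.8 and 31.4 CPM untreated (log2 fold change -3.68 ± 0.27, adjusted p = 1.43e-06), and its facing gene Ankrd37, which held 0.0787 times the counts, was not called (log2 fold change -0.38). Fbxl13, an F-box gene, held 0.7901, 1.61 and 1.87 CPM with OMX, against 12.8, 19.1 and 19.2 CPM untreated (log2 fold change -3.57 ± 0.35, adjusted p = 1.33e-05), and faces Lrrc17, which held 0.0923 times the counts and was not tested.

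**Figure D2:**
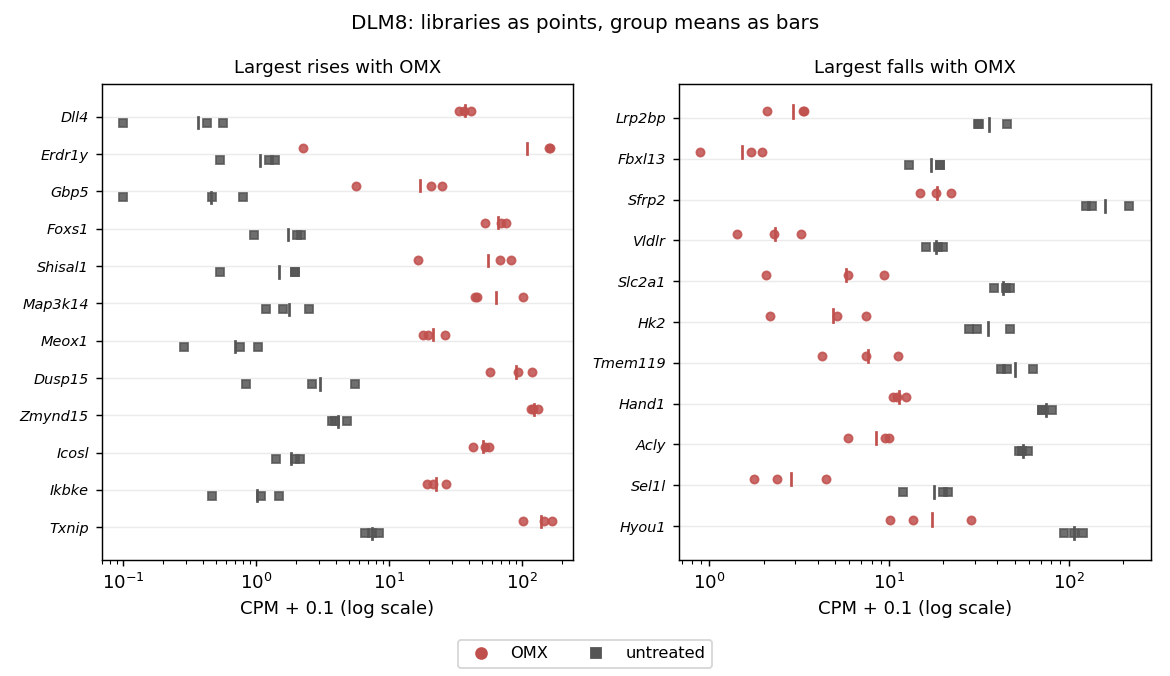
CPM with 0.1 added (x axis, log scale) in each DLM8 library for the 12 largest rises (left) and 11 of the 12 largest falls (right) outside the best known families, with OMX as circles above untreated as squares and group means as bars. No OMX library overlaps an untreated library of the same gene, which the choice of genes required. For Erdr1y one OMX library (2.17 CPM) lies close to the highest untreated one (1.3 CPM).

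Alpha-arrestins, adaptors that take transporters and receptors off the cell surface, rose together. Txnip and Arrdc4 are known targets of the glucose-sensing factors MondoA (Mlxip) and ChREBP (Mlxipl), which bind carbohydrate response elements. The promoter of Txnip is shown because it holds a match to such an element, given in capitals. It was read from RefSeq on the GRCm38.p6 build at chr3:96557707-96558006 (+ strand), a window around the gene start, and the match starts at -85 from that start.
Txnip: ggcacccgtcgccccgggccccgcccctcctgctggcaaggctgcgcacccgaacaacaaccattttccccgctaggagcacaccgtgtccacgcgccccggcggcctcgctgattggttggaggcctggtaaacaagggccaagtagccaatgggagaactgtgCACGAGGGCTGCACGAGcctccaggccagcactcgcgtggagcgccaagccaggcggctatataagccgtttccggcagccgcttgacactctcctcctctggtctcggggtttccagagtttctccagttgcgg
The letters searched on either strand were CACGNG and CNCGNG with any 5 bases between them. They were found for 0.426% of 27025 genes with a RefSeq promoter and for 1 of the 7 genes of this list. Among all tested genes a match was found in 0.504% of those higher, 1.15% of those lower and 0.806% of those not called. A match describes the letters and is not a measured binding site.

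Txnip, which binds thioredoxin and restrains glucose uptake, held 103, 147 and 168 CPM with OMX, against 7.43, 8.33 and 6.51 CPM untreated (log2 fold change 4.23 ± 0.22, adjusted p = 8.16e-08). It faces Gm15441, whose row held 46.4 times its counts and had a log2 fold change of 4.61. The relatives rose from lower levels. Arrdc4 held 20.1, 28.5 and 20.1 CPM with OMX, against 5.199, 2.19 and 3.49 CPM untreated (log2 fold change 2.65 ± 0.31, adjusted p = 5.63e-05). Arrdc3, known for the turnover of beta-adrenergic receptors, held 10.6, 12.7 and 13.1 CPM with OMX, against 1.11, 2.19 and 0.9296 CPM untreated (log2 fold change 3.09 ± 0.37, adjusted p = 5.33e-05). Arrdc2 held 4.94, 6.61 and 3.63 CPM with OMX, against 0.186, 0.219 and 0.9296 CPM untreated (log2 fold change 3.52 ± 0.63, adjusted p = 0.00103). In each of these 4 genes every OMX library was above every untreated one, and none of the 3 relatives faces an annotated gene. In all, 5 of 7 tested members of the list were higher and 0 lower, with a median log2 fold change of 2.65, where 18.4% of all genes of that level were higher. Since 1 of the 7 entered the test through its OMX counts alone, that count is a description. The other one was Mlxip itself (log2 fold change 0.95 ± 0.24, adjusted p = 0.00981), which faces Gm15747 (1.35 times its counts, log2 fold change 1.04). Mlx, the partner of both sensors, held 23.2 ± 1.48 CPM with OMX and 28.5 ± 2.46 CPM untreated and was not called.

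Guanylate-binding proteins (GBP) and immunity-related GTPases (IRG) attack the vacuoles of microbes inside cells and are known as targets of interferon, which acts through interferon-stimulated response elements. Promoters of 4 of them are shown because each holds a match to the core of such an element, in capitals. They are RefSeq promoters on GRCm38.p6, windows around the gene start, at chr3:142559794-142560093 (+ strand) for Gbp3, chr3:142496684-142496983 (+ strand) for Gbp5, chr3:142530086-142530385 (+ strand) for Gbp7 and chr11:58214727-58215026 (+ strand) for Irgm2.
Gbp3: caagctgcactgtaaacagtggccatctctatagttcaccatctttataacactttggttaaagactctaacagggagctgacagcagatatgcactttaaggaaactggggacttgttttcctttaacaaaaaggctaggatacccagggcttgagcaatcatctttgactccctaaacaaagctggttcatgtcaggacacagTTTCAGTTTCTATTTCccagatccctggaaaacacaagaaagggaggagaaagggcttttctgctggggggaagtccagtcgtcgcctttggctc
Gbp5: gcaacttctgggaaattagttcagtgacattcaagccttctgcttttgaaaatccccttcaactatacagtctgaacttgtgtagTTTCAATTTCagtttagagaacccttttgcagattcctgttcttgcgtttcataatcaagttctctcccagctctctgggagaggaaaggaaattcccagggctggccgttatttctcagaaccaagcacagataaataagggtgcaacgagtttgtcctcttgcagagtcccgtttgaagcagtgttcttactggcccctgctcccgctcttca
Gbp7: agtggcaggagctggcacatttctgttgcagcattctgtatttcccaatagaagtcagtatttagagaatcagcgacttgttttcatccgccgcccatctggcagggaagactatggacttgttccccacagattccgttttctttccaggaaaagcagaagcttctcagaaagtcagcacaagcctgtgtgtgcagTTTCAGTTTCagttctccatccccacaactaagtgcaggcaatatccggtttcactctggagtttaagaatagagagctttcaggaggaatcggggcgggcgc
Irgm2: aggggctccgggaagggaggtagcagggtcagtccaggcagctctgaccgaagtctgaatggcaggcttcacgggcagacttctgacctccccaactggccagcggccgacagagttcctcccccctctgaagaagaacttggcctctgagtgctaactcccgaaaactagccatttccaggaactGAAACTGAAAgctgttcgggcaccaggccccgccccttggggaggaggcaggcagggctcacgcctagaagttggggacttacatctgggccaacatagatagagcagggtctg
The letters searched on either strand were TTTC and TTTC with any 2 bases between them, and overlapping matches were joined, as in Gbp3. First matches start at -45 from the gene start in Gbp3, -165 in Gbp5, -53 in Gbp7 and -64 in Irgm2. Of the 10 genes of this list with a RefSeq promoter 8 held a match, against 3.99% of 27025 genes. Among all tested genes a match was found in 5.17% of those higher, 3.82% of those lower and 3.15% of those not called.

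Gbp5, which helps to assemble inflammasomes, held 5.53, 24.9 and 20.9 CPM with OMX, against 0.371, 0 and 0.697 CPM untreated (log2 fold change 5.55 ± 0.72, adjusted p = 0.000105). Gbp3 held 3.56, 8.12 and 15.6 CPM with OMX, against 0.371, 1.096 and 0.232 CPM untreated (log2 fold change 3.98 ± 0.65, adjusted p = 0.000583). Irgm2, a regulator of the family, held 9.28, 23.8 and 19.4 CPM with OMX, against 1.67, 3.29 and 0.697 CPM untreated (log2 fold change 3.20 ± 0.48, adjusted p = 0.000305). OMX replicate 1 was the lowest of the treated libraries in all 3 genes, and still above every untreated one. Iigp1 had 56 counts over the OMX libraries and 0 over the untreated ones, at least 17.5-fold higher when the untreated group is set to 3 counts in all. This bound covers counting error only and takes each count as independent. Of 19 genes listed 11 were tested, and 9 of these were higher and none lower, with a median log2 fold change of 2.76, against 15.5% higher among all genes of that level. Since 2 of the 11 entered the test through their OMX counts alone, this count is a description. With at least 50 counts in 3 libraries required, 4 were called. All 9 face no annotated gene, and reads of the close copies within both families may be split.

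Genes that load peptides onto MHC class I, the display read by CD8 T cells, rose in part. Of 26 tested members 11 were higher and none lower (median log2 fold change 0.70), where 18.4% of genes of that level were higher. Of these 26, 4 entered the test through the OMX libraries alone, and with at least 50 counts in 3 libraries required 6 were higher. H2-T22, a non-classical class I gene seen by gamma-delta T cells, held 706, 649 and 662 CPM with OMX, against 93.2, 62.7 and 64.95 CPM untreated (log2 fold change 3.19 ± 0.16, adjusted p = 6.93e-08). It faces A930015D03Rik, a row at 0.587 times its counts that was not called (log2 fold change 0.00). H2-T10, its close relative, held 15.8, 20.4 and 20.6 CPM with OMX, against 3.16, 2.63 and 4.07 CPM untreated (log2 fold change 2.52 ± 0.27, adjusted p = 2.49e-05), and faces BC023719 (7.804 times its counts, log2 fold change -0.47). In both genes all OMX libraries were above all untreated ones. H2-T3, the thymus leukaemia antigen, had 126 counts with OMX and 0 untreated, at least 39.4-fold higher against 3 counts over the group. Tap1, a subunit of the peptide pump, averaged 35.6 ± 5.605 CPM with OMX and 15.7 ± 1.72 CPM untreated (log2 fold change 1.18 ± 0.19, adjusted p = 0.000582), but it faces Psmb9 (3.19 times its counts, log2 fold change 0.84), and reads of the pair may not be told apart. H2-T genes are near-identical copies, and their reads may be split.

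**Figure D3:**
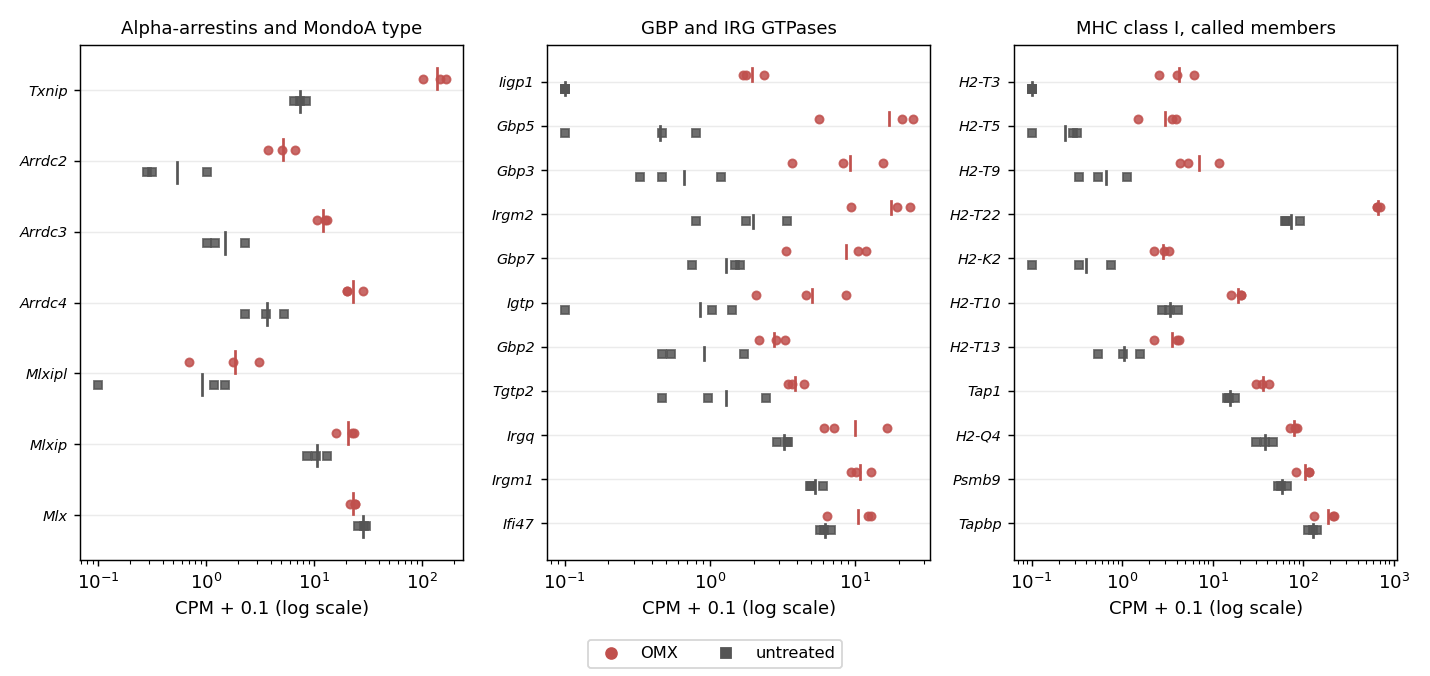
CPM with 0.1 added (x axis, log scale) in each library for alpha-arrestins and their sensors (left), all tested GBP and IRG genes (middle) and the called class I genes (right), with OMX as circles above untreated as squares and group means as bars. In Txnip, Gbp5 and H2-T22 every OMX library lies above every untreated one, and Mlx, Mlxipl, Gbp2 and Ifi47 are the members drawn that were not called.

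Receptors for cytokines rose far more often than they fell. Of 27 tested, 14 rose and 1 fell, with a median log2 fold change of 0.88 and 18.4% higher among genes of that level. The count of rises was 9 without OMX replicate 1 and 8 without untreated replicate 3. Il6st, the shared receptor gp130 of the interleukin-6 family, held 53.8, 58.6 and 51.7 CPM with OMX, against 16.2, 15.01 and 17.4 CPM untreated (log2 fold change 1.76 ± 0.17, adjusted p = 1.01e-05). Ifnar2, a chain of the type I interferon receptor, held 13.04, 18.4 and 25.3 CPM with OMX, against 5.85, 3.29 and 4.18 CPM untreated (log2 fold change 2.08 ± 0.32, adjusted p = 0.000335). Ccr10, a chemokine receptor of skin and mucosa, held 139, 128 and 156 CPM with OMX, against 31.7, 32.2 and 37.6 CPM untreated (log2 fold change 2.06 ± 0.15, adjusted p = 1.37e-06). No library of one group reached the other in these genes. Il12rb2, a chain of the interleukin-12 receptor, averaged 18.8 ± 2.66 CPM with OMX and 5.81 ± 1.64 CPM untreated (log2 fold change 1.68 ± 0.27, adjusted p = 0.00048) and faces Serbp1, which held 6.78 times its counts and fell (log2 fold change -0.73).

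Sensors of microbes and their adaptors followed. Of 17 tested genes 7 were higher and 1 lower, against 15.5% higher among genes of that level, and 3 entered the test through OMX libraries alone. Ripk2, the kinase below NOD receptors, averaged 41.1 ± 7.104 CPM with OMX and 7.39 ± 1.24 CPM untreated (log2 fold change 2.48 ± 0.22, adjusted p = 5.83e-06). Casp4, the caspase that senses lipopolysaccharide in the cytosol, averaged 4.27 ± 1.19 CPM with OMX and 0.502 ± 0.172 CPM untreated (log2 fold change 3.07 ± 0.54, adjusted p = 0.00099). Irak2, a kinase of interleukin-1 and Toll-like receptors, averaged 15.4 ± 1.78 CPM with OMX and 2.57 ± 0.895 CPM untreated (log2 fold change 2.56 ± 0.31, adjusted p = 6.02e-05), and faces Gm43963 (3.26 times its counts, log2 fold change 3.45). The lone fall was Irak4, the first kinase of that cascade (log2 fold change -0.80 ± 0.13, adjusted p = 0.000614), which faces Twf1 (0.0586 times its counts, log2 fold change -0.84). Among complement and acute-phase genes, C3, the central complement component, held 32, 42.9 and 38.8 CPM with OMX, against 2.78, 2.41 and 3.02 CPM untreated (log2 fold change 3.79 ± 0.23, adjusted p = 3.43e-07). Serping1, the inhibitor of C1, fell instead (log2 fold change -1.04 ± 0.20, adjusted p = 0.00177).

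TRIM genes, ubiquitin ligases of which many restrict viruses, rose in 11 of 37 and fell in 3, against 18.4% higher among genes of that level. The rises numbered 7 without OMX replicate 2, untreated replicate 2 or untreated replicate 3, and 3 of the 37 entered the test through OMX libraries alone. Trim12c averaged 52.5 ± 23.6 CPM with OMX and 8.93 ± 1.81 CPM untreated (log2 fold change 2.56 ± 0.34, adjusted p = 0.000117). Trim24, a co-regulator of nuclear receptors, averaged 12.5 ± 0.465 CPM with OMX and 2.38 ± 1.104 CPM untreated (log2 fold change 2.41 ± 0.35, adjusted p = 0.000256). Trim47 averaged 93.98 ± 4.396 CPM with OMX and 27.4 ± 1.87 CPM untreated (log2 fold change 1.78 ± 0.15, adjusted p = 3.54e-06).

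Receptors for lysophospholipids, nucleotides and prostanoids were another group with rises and no falls: 7 of 12 tested were higher, where 18.4% of genes of that level were. S1pr2, a receptor of sphingosine-1-phosphate, held 32.4, 15.5 and 15.2 CPM with OMX, against 3.71, 4.82 and 3.49 CPM untreated (log2 fold change 2.39 ± 0.34, adjusted p = 0.000203). P2ry6, a receptor of UDP, held 9.88, 4.82 and 8.41 CPM with OMX, against 0.186, 0 and 0.9296 CPM untreated (log2 fold change 4.38 ± 0.71, adjusted p = 0.00054). S1pr4, the sphingosine-1-phosphate receptor of leukocytes, held 8.296, 6.33 and 10.6 CPM with OMX, against 1.49, 1.096 and 0.9296 CPM untreated (log2 fold change 2.82 ± 0.39, adjusted p = 0.000184). The groups were apart in all 3. Sphk1, which makes sphingosine-1-phosphate, rose as well (log2 fold change 1.36 ± 0.14, adjusted p = 2.22e-05), and its facing row Sphkos held 0.0608 times the counts (log2 fold change 1.13). Of the 33 listed receptors 21 had too few counts to be tested, and of the 12 tested 2 passed through the OMX libraries alone and 1 through the untreated libraries alone.

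Signalling inside the cell moved at several points. Pde4b, which breaks down cyclic AMP, held 4.74, 12.1 and 7.48 CPM with OMX, against 0.928, 0.438 and 0 CPM untreated (log2 fold change 4.05 ± 0.67, adjusted p = 0.000654). Pde4a averaged 33.4 ± 13.4 CPM with OMX and 9.496 ± 3.27 CPM untreated (log2 fold change 1.81 ± 0.31, adjusted p = 0.000858). Among RGS proteins, which switch off G proteins, 4 of 7 were higher and 1 was lower, against 15.5% higher and 8.18% lower among genes of that level, and 2 were higher without OMX replicate 3 or with at least 50 counts in 3 libraries required. Rgs16 averaged 61.4 ± 5.29 CPM with OMX and 18.98 ± 4.04 CPM untreated (log2 fold change 1.69 ± 0.19, adjusted p = 3.6e-05), but the row it faces, Gm28513, held 48.5 times its counts (log2 fold change 1.90). Of growth factors, Csf1, which feeds macrophages and osteoclasts, averaged 402 ± 43.5 CPM with OMX and 135 ± 16.7 CPM untreated (log2 fold change 1.58 ± 0.14, adjusted p = 4.78e-06). Gdnf, a ligand of the RET receptor, averaged 132 ± 6.704 CPM with OMX and 40.1 ± 6.46 CPM untreated (log2 fold change 1.72 ± 0.16, adjusted p = 7.16e-06). Pgf, placental growth factor, averaged 11.2 ± 2.07 CPM with OMX and 1.93 ± 0.889 CPM untreated (log2 fold change 2.52 ± 0.38, adjusted p = 0.000317). Those 3 genes were higher and face no annotated gene, while Vegfb, of the same family as Pgf, was lower (log2 fold change -1.44 ± 0.27, adjusted p = 0.0014). In insulin signalling Akt1, its central kinase, averaged 20.7 ± 8.87 CPM with OMX and 61.5 ± 7.55 CPM untreated (log2 fold change -1.57 ± 0.26, adjusted p = 0.000641), and Foxo3, a factor that AKT keeps out of the nucleus, averaged 32.9 ± 6.802 CPM with OMX and 14.04 ± 1.48 CPM untreated (log2 fold change 1.23 ± 0.21, adjusted p = 0.000732). Of 33 tested genes of that pathway 5 were lower and 2 higher, against 15.9% lower and 18.4% higher among genes of that level. The lower count was 8 without OMX replicate 1, and 3 without OMX replicate 2, OMX replicate 3, untreated replicate 2 or untreated replicate 3 or with library size alone.

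Among regulators of the actin skeleton, several called genes rose. Rnd1, which relaxes actin fibres, held 18.2, 22.9 and 31.4 CPM with OMX, against 1.58, 2.41 and 1.86 CPM untreated (log2 fold change 3.63 ± 0.31, adjusted p = 3.76e-06). Rhob, a short-lived small GTPase of endosomes, held 76.05, 81.6 and 94.7 CPM with OMX, against 21.4, 19.5 and 16.96 CPM untreated (log2 fold change 2.12 ± 0.17, adjusted p = 2.54e-06). Rnd3 averaged 35.2 ± 4.703 CPM with OMX and 12.9 ± 0.205 CPM untreated (log2 fold change 1.45 ± 0.19, adjusted p = 0.000109). Rac1, a small GTPase of membrane ruffles, averaged 47.1 ± 6.45 CPM with OMX and 88.1 ± 5.89 CPM untreated (log2 fold change -0.90 ± 0.15, adjusted p = 0.00081) and faces Daglb (3.18 times its counts, log2 fold change -0.80). Arhgef17 averaged 137 ± 11.9 CPM with OMX and 48.5 ± 6.496 CPM untreated (log2 fold change 1.498 ± 0.15, adjusted p = 1.52e-05) and Dock6 averaged 37.3 ± 6.202 CPM with OMX and 9.99 ± 1.56 CPM untreated (log2 fold change 1.90 ± 0.21, adjusted p = 3.42e-05), both exchange factors that load small GTPases with GTP. LIM domain genes, many of them parts of adhesion sites, rose in 8 of 24 and fell in 2, against 18.4% higher and 15.9% lower among genes of that level. Micall2, a partner of RAB proteins at cell junctions, held 54.9, 58.6 and 59.9 CPM with OMX, against 5.57, 7.01 and 4.42 CPM untreated (log2 fold change 3.35 ± 0.21, adjusted p = 3.8e-07). Ajuba, which links adhesion to Hippo signalling, held 77.7, 48.7 and 49.6 CPM with OMX, against 13.5, 7.23 and 9.18 CPM untreated (log2 fold change 2.55 ± 0.26, adjusted p = 1.96e-05).

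Developmental transcription factors of limb and mesenchyme went both ways: 13 of 33 were higher and 5 lower, against 18.4% and 15.9% of genes of that level. Of these 33, 1 entered the test through the OMX libraries alone. The higher count was 8 without OMX replicate 2, and the lower count was 3 without untreated replicate 2 or untreated replicate 3 or with library size alone, and 2 with at least 50 counts in 3 libraries required. Ets1 held 92.7, 68.9 and 60.5 CPM with OMX, against 28.6, 19.5 and 13.5 CPM untreated (log2 fold change 1.85 ± 0.26, adjusted p = 0.000189). Eya1, a phosphatase and co-activator of kidney and ear development, averaged 27.7 ± 3.22 CPM with OMX and 10.1 ± 0.789 CPM untreated (log2 fold change 1.46 ± 0.20, adjusted p = 0.000165). Prrx1, a homeobox factor that marks limb mesenchyme, fell: it held 19.4, 50.1 and 35.1 CPM with OMX, against 105, 105 and 85.4 CPM untreated (log2 fold change -1.5 ± 0.27, adjusted p = 0.00109). HOX genes, which set position along the body, were higher in 2 of 24 and lower in 1, against 15.5% higher and 8.18% lower among genes of that level. The smallest p-value among them was that of Hoxa10 (log2 fold change 1.41 ± 0.17, adjusted p = 7.55e-05).

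In the forkhead family 8 of 21 were higher and 2 lower, against 22.7% and 21.4% of genes of that level. The test was entered by 1 of the 21 through the OMX libraries alone and by 1 through the untreated libraries alone. Besides Foxs1, Foxp1 averaged 21.2 ± 7.27 CPM with OMX and 2.96 ± 0.766 CPM untreated (log2 fold change 2.84 ± 0.33, adjusted p = 4.45e-05). Foxa3, a factor of the liver lineage, had 104 counts with OMX and 0 untreated, at least 32.5-fold higher against 3 counts over the group, though it entered the test through the OMX libraries. Foxm1, a driver of mitotic genes, fell (log2 fold change -0.92 ± 0.26, adjusted p = 0.0145), a call lost without untreated replicate 2 (log2 fold change -0.76). Among nuclear receptors 5 of 24 were higher and 3 lower, against 18.4% higher and 15.9% lower among genes of that level. Of these 24, 1 entered the test through the OMX libraries alone, and 3 were higher with at least 50 counts in 3 libraries required. Vdr, the vitamin D receptor, held 61.6, 61.8 and 57.6 CPM with OMX, against 15.4, 20.3 and 16.96 CPM untreated (log2 fold change 1.78 ± 0.17, adjusted p = 1.1e-05). Rarg, the retinoic acid receptor gamma, averaged 52.6 ± 4.71 CPM with OMX and 22.5 ± 3.85 CPM untreated (log2 fold change 1.23 ± 0.18, adjusted p = 0.000274). Pparg, a master factor of fat cells, had 67 counts with OMX and 2 untreated, a ratio of 31.4 with an exact 95% interval of 8.36 to 265. Markers of fat cells summed to 4.03 to 10.99 CPM with OMX and 2.04 to 3.17 CPM untreated, and their part in this result was not tested. Thra, a thyroid hormone receptor, rose (log2 fold change 1.64 ± 0.26, adjusted p = 0.000503). It faces Nr1d1, whose row held 2.41 times its counts and fell by a little (log2 fold change -0.54).

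Factors that release RNA polymerase II from pausing gave few calls. Of 29 tested elongation genes 6 were higher and 2 lower, against 22.7% and 21.4% of genes of that level. Aff1, a scaffold of the super elongation complex, averaged 24.8 ± 9.23 CPM with OMX and 7.41 ± 1.87 CPM untreated (log2 fold change 1.75 ± 0.30, adjusted p = 0.000769). Ell, a partner in that complex, averaged 21.6 ± 2.86 CPM with OMX and 8.19 ± 1.48 CPM untreated (log2 fold change 1.40 ± 0.23, adjusted p = 0.000618). Hexim1, which inhibits the elongation kinase P-TEFb, averaged 38.2 ± 15.5 CPM with OMX and 14.9 ± 1.75 CPM untreated (log2 fold change 1.36 ± 0.29, adjusted p = 0.00314). In the Polycomb group, which silences developmental genes, 7 of 32 were higher and 5 lower, near the 18.4% and 15.9% of genes of that level. Aebp2, an accessory subunit of the complex PRC2, held 151, 171 and 185 CPM with OMX, against 30.5, 32.99 and 35.2 CPM untreated (log2 fold change 2.36 ± 0.15, adjusted p = 3.55e-07), whereas Suz12, a core subunit of it, averaged 6.73 ± 1.86 CPM with OMX and 14.9 ± 1.28 CPM untreated (log2 fold change -1.14 ± 0.26, adjusted p = 0.00521). The lower count was 3 without OMX replicate 2, OMX replicate 3 or untreated replicate 3, and with library size alone. Cbx7 averaged 16.5 ± 3.78 CPM with OMX and 2.51 ± 0.6097 CPM untreated (log2 fold change 2.71 ± 0.31, adjusted p = 3.97e-05) and faces Apobec3 (1.86 times its counts, log2 fold change 1.55).

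Host genes of small nucleolar RNAs, whose own spliced transcripts are degraded in the course of translation, split: 6 of 20 were higher and 4 lower, against 15.5% and 8.18% of genes of that level. Through the untreated libraries alone, 1 of the 20 entered the test. Snhg15 held 17.9, 8.12 and 8.93 CPM with OMX, against 1.3, 0.877 and 1.39 CPM untreated (log2 fold change 3.27 ± 0.42, adjusted p = 9.44e-05). Snhg17 held 21.6, 11.6 and 12.8 CPM with OMX, against 2.599, 1.096 and 1.74 CPM untreated (log2 fold change 3.06 ± 0.38, adjusted p = 7.81e-05). Both were low in all untreated libraries and face no annotated gene. Snhg4 fell (log2 fold change -3.67 ± 0.89, adjusted p = 0.00717), a call lost without untreated replicate 2 (log2 fold change -3.17). In mRNA deadenylation Btg2, an antiproliferative partner of the CCR4-NOT complex, averaged 9.57 ± 1.04 CPM with OMX and 1.303 ± 0.605 CPM untreated (log2 fold change 2.85 ± 0.40, adjusted p = 0.000183), while Cnot7, a catalytic subunit, averaged 3.29 ± 0.915 CPM with OMX and 10.005 ± 2.14 CPM untreated (log2 fold change -1.60 ± 0.32, adjusted p = 0.00229) and faces Zdhhc2 (13.3 times its counts, log2 fold change -1.14).

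**Figure D4:**
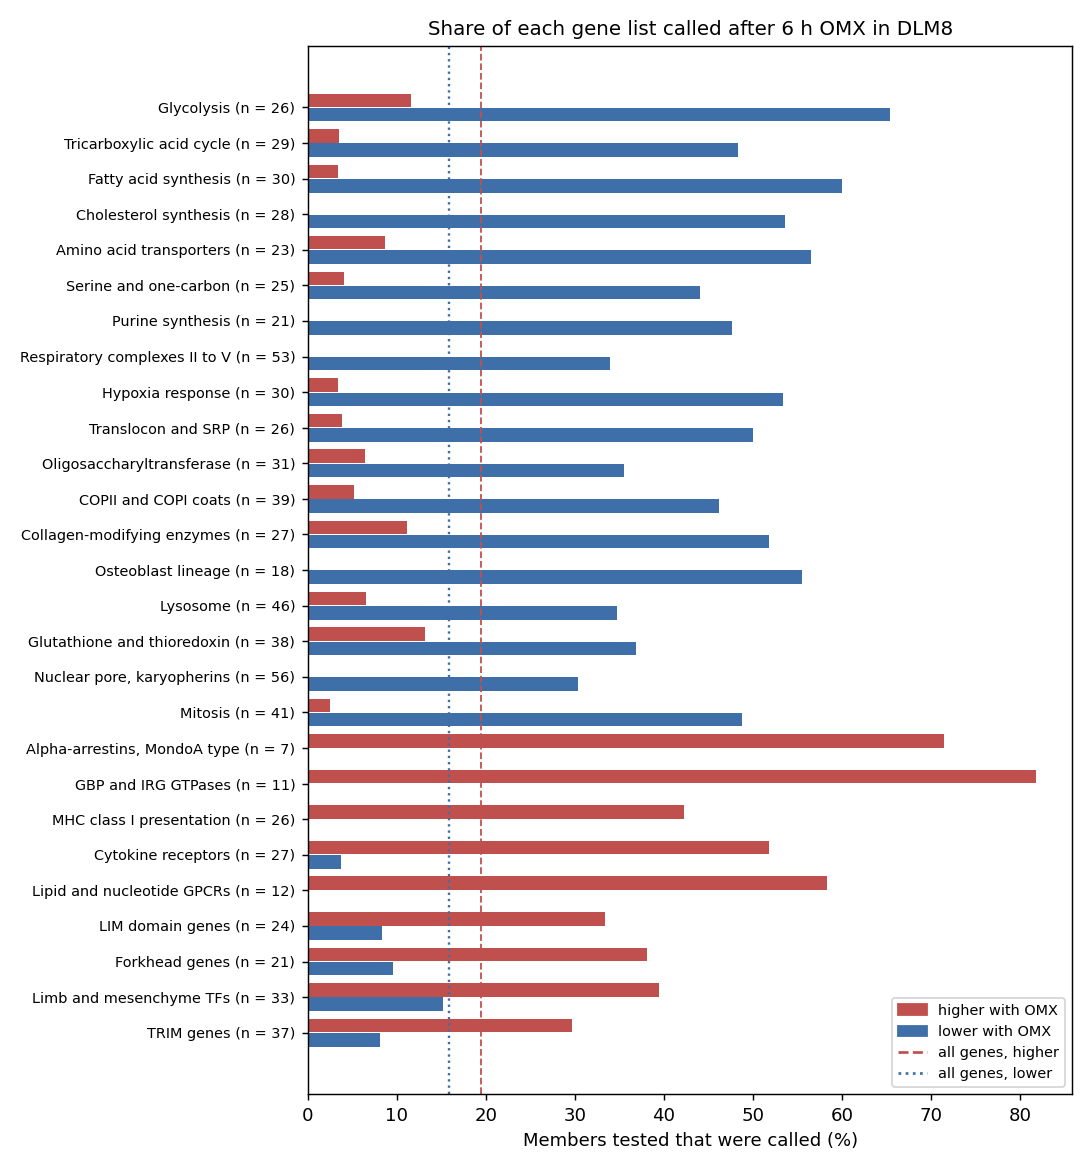
Share of tested members (x axis, percent) called higher and lower after OMX in 27 of the 97 lists (y axis, n is the number tested), with the shares over all genes as dashed (higher, 19.4%) and dotted (lower, 15.9%) lines. The 18 lists drawn from glycolysis down to mitosis lie beyond the line for lower genes, and the 9 drawn from the alpha-arrestins down to the TRIM genes lie beyond the line for higher genes. The 27 lists were picked with results known. Lists not drawn include complex I, which lies beyond neither line (2.63% higher, 7.89% lower).

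Glycolysis, which turns glucose into pyruvate and lactate, fell along its length. Of 26 tested genes 17 were lower and 3 higher, with a median log2 fold change of -1.04, against 21.4% lower and 22.7% higher among all genes of that level. Besides Slc2a1 and Hk2, Pgam1, phosphoglycerate mutase, held 14.6, 10.95 and 10.8 CPM with OMX, against 65.4, 51.5 and 41.6 CPM untreated (log2 fold change -2.12 ± 0.22, adjusted p = 1.8e-05). Ldha, which makes lactate, held 111, 105 and 103 CPM with OMX, against 413, 339 and 303 CPM untreated (log2 fold change -1.72 ± 0.14, adjusted p = 2.6e-06). Slc16a3, which exports lactate, held 27.2, 36.7 and 36.2 CPM with OMX, against 129, 114 and 95.3 CPM untreated (log2 fold change -1.76 ± 0.18, adjusted p = 1.5e-05). In all of these every OMX library was below every untreated one. Eno1, the common enolase, averaged 129 ± 12.7 CPM with OMX and 329 ± 45.2 CPM untreated (log2 fold change -1.35 ± 0.14, adjusted p = 1.92e-05), whereas Eno2, the enolase of neurons, rose: it held 43.5, 29.2 and 33.4 CPM with OMX, against 6.41, 8.77 and 6.97 CPM untreated (log2 fold change 2.26 ± 0.23, adjusted p = 1.63e-05). Pfkfb2, which makes the activator of phosphofructokinase, also rose (log2 fold change 1.25 ± 0.22, adjusted p = 0.00084), and faces Yod1, whose row held 0.0978 times its counts (log2 fold change 1.57).

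The tricarboxylic acid cycle and its feeders fell in 14 of 29 genes and rose in 1, with a median of -0.61, where 21.4% of genes of that level were lower. The lower count was 9 without untreated replicate 2 or untreated replicate 3, and 9 with library size alone. Ogdh, of the 2-oxoglutarate dehydrogenase complex, averaged 19.4 ± 1.24 CPM with OMX and 44.6 ± 9.25 CPM untreated (log2 fold change -1.20 ± 0.19, adjusted p = 0.000548). Me1, malic enzyme, which yields NADPH, averaged 44.2 ± 10.2 CPM with OMX and 93.7 ± 17.3 CPM untreated (log2 fold change -1.08 ± 0.19, adjusted p = 0.00112), and its facing row A330041J22Rik held 13.2 times the counts (log2 fold change -1.01). The single rise, Me3 (log2 fold change 0.63 ± 0.23, adjusted p = 0.0459), was kept only when OMX replicate 1 was the library left out, and its groups overlapped. Its log2 fold change lay between 0.42 and 0.85 without single libraries, and it faces A230065N10Rik (0.463 times its counts, log2 fold change 0.55). In the pentose phosphate route, the other source of NADPH, 7 of 21 were lower and 2 higher, against 15.9% lower and 18.4% higher among genes of that level, with 4 lower without OMX replicate 2. Of these 21, 1 entered the test through the OMX libraries alone. Pgd, of its oxidative branch, averaged 16.1 ± 0.308 CPM with OMX and 39.7 ± 3.04 CPM untreated (log2 fold change -1.303 ± 0.17, adjusted p = 0.00012).

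Sterol and fatty acid synthesis, which share control by SREBP factors, were lower. Of 28 cholesterol genes 15 fell and none rose (median -0.79), and of 30 fatty acid genes 18 fell and 1 rose (median -0.95), where 15.9% of genes of either level were lower. Msmo1, a demethylating oxidase of sterol precursors, held 3.56, 3.78 and 3.11 CPM with OMX, against 13.2, 15.1 and 16.3 CPM untreated (log2 fold change -2.09 ± 0.26, adjusted p = 7.92e-05). Sqle, squalene epoxidase, held 13.3, 10.01 and 9.03 CPM with OMX, against 35.6, 32.7 and 33.9 CPM untreated (log2 fold change -1.66 ± 0.20, adjusted p = 7.55e-05). The groups were apart throughout. Hmgcs1, the synthase that opens the pathway, averaged 6.64 ± 0.716 CPM with OMX and 27.9 ± 7.02 CPM untreated (log2 fold change -2.07 ± 0.25, adjusted p = 5.71e-05) and faces Gm48342 (25.2 times its counts, log2 fold change -1.76). Scd2, a desaturase that makes oleate, held 111, 131 and 119.7 CPM with OMX, against 271, 366 and 329 CPM untreated (log2 fold change -1.42 ± 0.14, adjusted p = 1.32e-05). Its relative Scd1 averaged 22.3 ± 3.67 CPM with OMX and 63.9 ± 7.38 CPM untreated (log2 fold change -1.51 ± 0.18, adjusted p = 5.53e-05). The 1 rise was Acacb, an acetyl-CoA carboxylase tied to fat burning (log2 fold change 1.29 ± 0.39, adjusted p = 0.0226), which was lost without OMX replicate 2, OMX replicate 3 or untreated replicate 3, with log2 fold changes between 1.16 and 1.36 over the libraries left out. In fatty acid oxidation and ketone bodies 5 of 26 genes were lower and 2 higher (median -0.11), against 15.9% lower and 18.4% higher among genes of that level. The lower count was 2 without OMX replicate 2 and 3 without untreated replicate 2 or untreated replicate 3. Cpt1a, which admits fatty acids to mitochondria, was 1 of the 2 higher genes (log2 fold change 1.28 ± 0.32, adjusted p = 0.00774).

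Nucleotide and one-carbon pathways were lower too. Of 21 purine genes 10 fell and none rose (median -0.68), and of 25 serine and one-carbon genes 11 fell and 1 rose (median -0.50), against 21.4% lower among genes of that level. Mthfd2, the mitochondrial folate enzyme of growing cells, held 6.52, 9.44 and 9.97 CPM with OMX, against 25.1, 27.6 and 37.6 CPM untreated (log2 fold change -1.80 ± 0.24, adjusted p = 0.000144). Psat1, of serine synthesis, held 13.8, 21.3 and 19.2 CPM with OMX, against 44.4, 71.4 and 68.3 CPM untreated (log2 fold change -1.76 ± 0.23, adjusted p = 0.000107). Ak4, an adenylate kinase of mitochondria, held 4.25, 2.64 and 6.54 CPM with OMX, against 19.9, 24 and 20.5 CPM untreated (log2 fold change -2.26 ± 0.31, adjusted p = 0.00015). All OMX libraries were below all untreated ones in these. Cad, which starts pyrimidine synthesis, averaged 25.1 ± 4.74 CPM with OMX and 71.4 ± 9.697 CPM untreated (log2 fold change -1.51 ± 0.19, adjusted p = 7.93e-05). Rrm2, the regulated subunit of ribonucleotide reductase, averaged 20.3 ± 6.95 CPM with OMX and 46.98 ± 6.49 CPM untreated (log2 fold change -1.21 ± 0.24, adjusted p = 0.00217).

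Transporters of amino acids fell in 13 of 23 and rose in 2 (median -1.0), against 15.9% lower and 18.4% higher among genes of that level. Slc7a5, the LAT1 carrier of leucine and other large neutral amino acids, held 40.3, 26.1 and 30.7 CPM with OMX, against 97.5, 138 and 135 CPM untreated (log2 fold change -1.93 ± 0.20, adjusted p = 1.77e-05). Slc3a2, the chain that carries LAT1 to the membrane, went the other way: it held 101, 121 and 112 CPM with OMX, against 51.99, 74.4 and 60.8 CPM untreated (log2 fold change 0.84 ± 0.16, adjusted p = 0.00174). Neither faces an annotated gene, and in each the groups did not overlap. Slc1a4, a carrier of alanine and serine, held 5.33, 4.34 and 1.66 CPM with OMX, against 18.2, 28.1 and 22.5 CPM untreated (log2 fold change -2.59 ± 0.36, adjusted p = 0.000167). Slc38a2, a glutamine carrier that responds to starvation, held 18.7, 13.1 and 9.34 CPM with OMX, against 59.2, 60.2 and 63.6 CPM untreated (log2 fold change -2.15 ± 0.23, adjusted p = 2.44e-05). Slc6a6, the taurine carrier, averaged 59.8 ± 17.8 CPM with OMX and 178 ± 5.92 CPM untreated (log2 fold change -1.58 ± 0.19, adjusted p = 5.76e-05), and its facing row Gm44981 held 0.122 times the counts (log2 fold change -0.96). Slc43a2 rose (log2 fold change 1.75 ± 0.38, adjusted p = 0.00359) and faces Gm45606 (4.81 times its counts, log2 fold change 1.98).

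Of 38 mitochondrial carriers tested 9 were lower and 2 higher, against 8.18% lower and 15.5% higher among genes of that level. Through the untreated libraries alone, 1 of the 38 entered the test. The 3 carriers of ADP or phosphate named here were among the lower ones. Slc25a5, an exchanger of ADP and ATP, averaged 52.5 ± 6.13 CPM with OMX and 133 ± 9.83 CPM untreated (log2 fold change -1.34 ± 0.15, adjusted p = 2.84e-05). Slc25a4, its muscle-type relative, averaged 27.7 ± 2.25 CPM with OMX and 70.6 ± 4.22 CPM untreated (log2 fold change -1.35 ± 0.15, adjusted p = 4.28e-05). Slc25a3, the phosphate carrier, averaged 27.6 ± 4.19 CPM with OMX and 54.9 ± 7.84 CPM untreated (log2 fold change -1.0 ± 0.18, adjusted p = 0.00124). None of these 3 faces an annotated gene. Hspd1, the chaperonin of the matrix, averaged 65.3 ± 6.4 CPM with OMX and 197 ± 8.42 CPM untreated (log2 fold change -1.59 ± 0.13, adjusted p = 3.51e-06). It faces its partner Hspe1, whose row held 0.139 times its counts and fell too (log2 fold change -1.31). Respiratory complexes II to V fell in 18 of 53 genes and rose in none, with a median of -0.54, where 15.9% of genes of that level were lower. That count was 10 without OMX replicate 2 and 11 with library size alone. Complex I fell in 3 of 38 and rose in 1, a smaller share than the 15.9% of genes of its level. Of 7 tested genes of mitochondrial DNA 5 were lower, against 31.2% of genes of that level, and 2 were without OMX replicate 2. The most changed of them, mt-Nd1, a subunit of complex I, averaged 35.8 ± 11.6 CPM with OMX and 74.6 ± 5.59 CPM untreated (log2 fold change -1.06 ± 0.21, adjusted p = 0.00209).

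**Figure D5:**
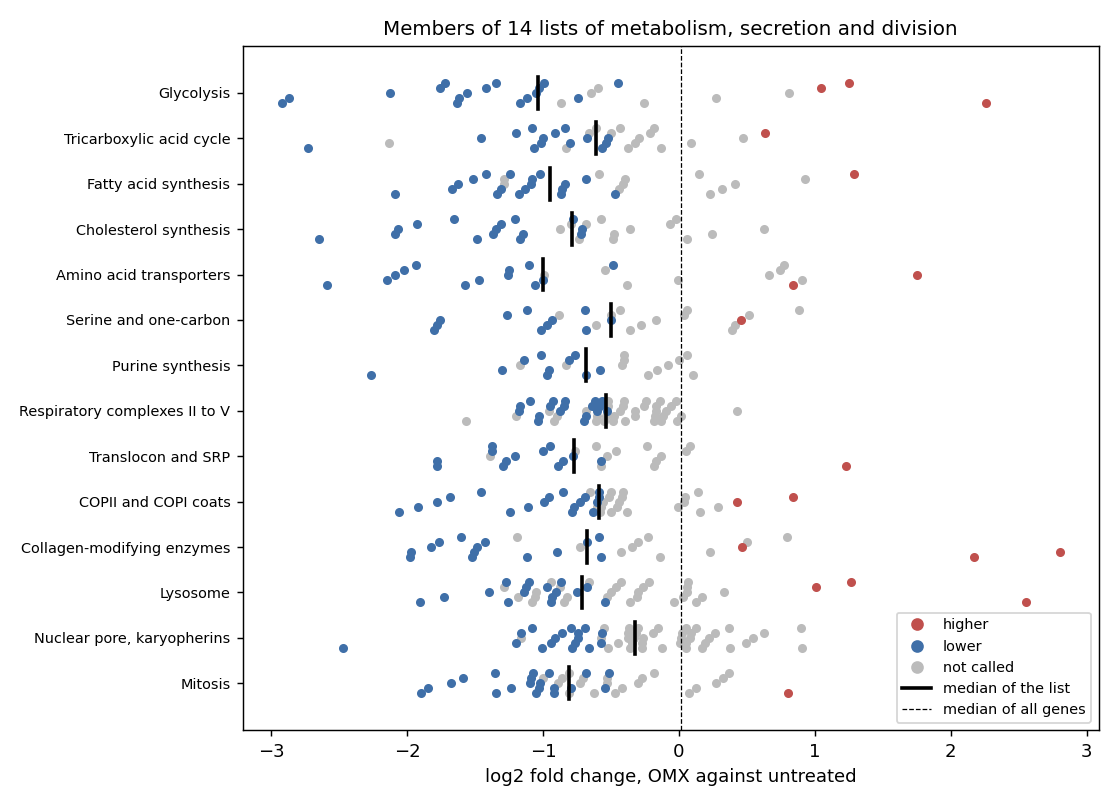
Log2 fold change, OMX against untreated (x axis), of every tested member of 14 lists (y axis), coloured by call, with the median of each list as a bar and that of all genes (0.02) as a dashed line. All 14 medians lie below that of all genes, and the lowest is that of glycolysis (-1.04).

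Genes that respond to low oxygen, among them several of glycolysis, were lower. Of 30 tested hypoxia genes 16 were lower and 1 higher (median -0.82), against 15.9% lower among genes of that level. Through the untreated libraries alone, 1 of the 30 entered the test. Egln1, the oxygen sensor PHD2, held 4.54, 3.399 and 1.87 CPM with OMX, against 23.95, 18.8 and 14.9 CPM untreated (log2 fold change -2.55 ± 0.33, adjusted p = 0.000108). P4ha2, a prolyl hydroxylase of collagen, held 19.2, 14.5 and 14.7 CPM with OMX, against 49.02, 44.5 and 36.7 CPM untreated (log2 fold change -1.43 ± 0.19, adjusted p = 0.000158). Stc1, a secreted hormone of calcium handling, had 2 counts over the OMX libraries and 109 over the untreated ones, a ratio of 0.0172 with an exact 95% interval of 0.00206 to 0.0636. It was picked after its values were seen. Bnip3, a mitophagy receptor, averaged 2.7 ± 1.77 CPM with OMX and 14.1 ± 0.811 CPM untreated (log2 fold change -2.38 ± 0.38, adjusted p = 0.000525), and faces Gm45507 (60.6 times its counts, log2 fold change -2.08). The exception was Pfkfb3, the inducible activator of glycolysis, which held 64.6, 63.1 and 64.99 CPM with OMX, against 41.5, 29.8 and 21.8 CPM untreated (log2 fold change 1.04 ± 0.21, adjusted p = 0.00235).

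The route of secreted proteins was lower at its entrance. Of 26 genes of the translocon, signal peptidase and signal recognition particle 13 fell and 1 rose (median -0.77), against 15.9% lower among genes of that level. Tram1, which sits beside the translocon, held 8.099, 11.3 and 12.04 CPM with OMX, against 43.8, 30.4 and 33.7 CPM untreated (log2 fold change -1.78 ± 0.23, adjusted p = 9.24e-05). Ssr1, of the translocon-associated complex, held 13.2, 17.2 and 12.04 CPM with OMX, against 39.7, 36.6 and 34.2 CPM untreated (log2 fold change -1.38 ± 0.20, adjusted p = 0.000211). Ssr3, of the same complex, held 19.95, 26.6 and 19.5 CPM with OMX, against 56.4, 57.2 and 57.9 CPM untreated (log2 fold change -1.37 ± 0.18, adjusted p = 9.62e-05). Every OMX library of these 3 genes lay below every untreated one. The rise of Srp54a, of the recognition particle (log2 fold change 1.23 ± 0.42, adjusted p = 0.0404), was lost without OMX replicate 2, OMX replicate 3, untreated replicate 2 or untreated replicate 3, with log2 fold changes between 0.95 and 1.48 over the libraries left out. Sugar transfer followed, with 11 of 31 genes lower and 2 higher, against 15.9% lower and 18.4% higher among genes of that level. Stt3b, a catalytic subunit of the oligosaccharyltransferase, held 17.98, 16.99 and 18.7 CPM with OMX, against 43.6, 53.04 and 53.5 CPM untreated (log2 fold change -1.48 ± 0.17, adjusted p = 4.49e-05), and its partner Stt3a averaged 33.5 ± 3.97 CPM with OMX and 71.02 ± 9.104 CPM untreated (log2 fold change -1.09 ± 0.17, adjusted p = 0.000369). Dpm1, which makes the mannose donor, was higher (log2 fold change 1.93 ± 0.47, adjusted p = 0.00696).

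Coat proteins and cargo receptors between the endoplasmic reticulum and Golgi fell in 18 of 39 and rose in 2 (median -0.59), where 21.4% of genes of that level were lower, and 28 were lower without OMX replicate 1. Kdelr1, which returns escaped chaperones, held 8.49, 4.72 and 5.19 CPM with OMX, against 29.8, 20.8 and 26.3 CPM untreated (log2 fold change -2.06 ± 0.27, adjusted p = 0.000116). Lman1, a cargo receptor of glycoproteins, held 6.72, 8.31 and 8.51 CPM with OMX, against 27.8, 26.5 and 26.5 CPM untreated (log2 fold change -1.78 ± 0.21, adjusted p = 4.47e-05). Mia2, of the cargo machinery at exit sites, averaged 4.82 ± 0.764 CPM with OMX and 15.5 ± 1.26 CPM untreated (log2 fold change -1.69 ± 0.25, adjusted p = 0.000293). The row with the most counts, Copg2, averaged 347 ± 40.3 CPM with OMX and 1314 ± 247 CPM untreated (log2 fold change -1.92 ± 0.14, adjusted p = 1.65e-06). It faces the imprinted gene Mest (0.058 times its counts, log2 fold change -1.66). Whether the Copg2 row holds reads of Mest was not tested, so its fall cannot be assigned to a coat gene. Of factors upstream, Creb3l1, which drives collagen secretion in osteoblasts, averaged 6.43 ± 4.58 CPM with OMX and 24.3 ± 4.56 CPM untreated (log2 fold change -1.92 ± 0.39, adjusted p = 0.00249). Xbp1, the factor of the unfolded protein response, averaged 9.998 ± 1.58 CPM with OMX and 20.1 ± 2.87 CPM untreated (log2 fold change -1.0 ± 0.23, adjusted p = 0.00448).

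Of 27 tested collagens 6 fell and 5 rose, against 8.18% lower and 15.5% higher among genes of that level. The rises numbered 3 without OMX replicate 3 or with at least 50 counts in 3 libraries required. Of these collagens, 1 entered the test through the OMX libraries alone and 1 through the untreated libraries alone. More of the enzymes that modify collagen fell than rose. Col1a2, a chain of collagen I, held 387, 287 and 262 CPM with OMX, against 946, 904 and 833 CPM untreated (log2 fold change -1.52 ± 0.14, adjusted p = 1.01e-05). Col6a3 held 28.8, 26.4 and 16.8 CPM with OMX, against 104, 72.2 and 50.9 CPM untreated (log2 fold change -1.66 ± 0.27, adjusted p = 0.000516). Col2a1, the cartilage collagen, held 408, 264 and 247 CPM with OMX, against 1032, 765 and 723 CPM untreated (log2 fold change -1.46 ± 0.19, adjusted p = 0.000124). Col1a2, Col6a3 and Col2a1 were lower in each OMX library than in any untreated one. Of the other cartilage markers, Sox9 held 7.87 to 14.5 CPM with OMX and 4.63 to 8.81 CPM untreated. Col9a1 and Comp lay at or under 1.67 CPM, and Acan and Matn1 were at 0 in every library. Of 27 collagen-modifying enzymes 14 fell and 3 rose, against 21.4% lower among genes of that level, and 9 fell without OMX replicate 2. Of these 27, 1 entered the test through the OMX libraries alone and 1 through the untreated libraries alone. Serpinh1, the collagen chaperone HSP47, held 127, 91.6 and 77.2 CPM with OMX, against 401, 403 and 364 CPM untreated (log2 fold change -1.98 ± 0.17, adjusted p = 4.69e-06). P3h1, a prolyl hydroxylase, averaged 6.67 ± 1.52 CPM with OMX and 23.6 ± 3.42 CPM untreated (log2 fold change -1.82 ± 0.24, adjusted p = 0.000136). Loxl4, a lysyl oxidase, was higher instead (log2 fold change 2.80 ± 0.34, adjusted p = 5.87e-05), and of the basement membrane Col4a2 rose from low counts (log2 fold change 3.05 ± 0.63, adjusted p = 0.00274) and faces Col4a1 (1.05 times its counts, log2 fold change 1.33, not called).

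Among glycoproteins of the matrix 11 of 34 fell and 6 rose, against 21.4% lower and 22.7% higher among genes of that level. Thbs2, a thrombospondin that restrains vessels, held 8.69, 6.04 and 4.36 CPM with OMX, against 49.8, 34.6 and 33.9 CPM untreated (log2 fold change -2.63 ± 0.27, adjusted p = 1.85e-05). Spp1, osteopontin, held 13.2, 13.03 and 10.5 CPM with OMX, against 52.1, 45.1 and 51.1 CPM untreated (log2 fold change -2.01 ± 0.18, adjusted p = 6.99e-06). Sdc2, a heparan sulphate carrier, averaged 17.4 ± 0.897 CPM with OMX and 51.8 ± 6.19 CPM untreated (log2 fold change -1.57 ± 0.17, adjusted p = 2.97e-05). Tnxb, a tenascin, rose (log2 fold change 1.53 ± 0.23, adjusted p = 0.000313). Of sugar chain synthesis 11 of 31 genes fell and 4 rose, against 15.9% lower and 18.4% higher among genes of that level, and 7 fell without OMX replicate 2, OMX replicate 3 or untreated replicate 2. With at least 50 counts in 3 libraries required 2 rose. Ext2, which polymerises heparan sulphate, averaged 7.23 ± 2.67 CPM with OMX and 23.6 ± 3.26 CPM untreated (log2 fold change -1.71 ± 0.28, adjusted p = 0.000571). Proteases were divided: Mmp14, the membrane collagenase, averaged 9.22 ± 1.001 CPM with OMX and 24.8 ± 3.66 CPM untreated (log2 fold change -1.43 ± 0.21, adjusted p = 0.000312), whereas Mmp9, the gelatinase, held 8.296, 10.8 and 13.3 CPM with OMX, against 1.11, 0.658 and 0.465 CPM untreated (log2 fold change 3.801 ± 0.41, adjusted p = 2.75e-05). Both are rows that face no annotated gene.

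Osteoblast genes were the lineage list with falls and no rises: 10 of 18 tested were lower (median -1.07), and none of the 10 faces an annotated gene, where 21.4% of genes of that level were lower. Alpl, the alkaline phosphatase that mineralises bone, held 111, 79.1 and 73.2 CPM with OMX, against 292, 262 and 224 CPM untreated (log2 fold change -1.56 ± 0.17, adjusted p = 3.11e-05). With Tmem119, Spp1 and Col1a2 it gave the 4 smallest p-values of the list. The 10 osteoblast markers together summed to 438 to 629 CPM with OMX and 970.1 to 1377 CPM untreated. In a bulk sample less RNA per cell and fewer cells of a type cannot be told apart.

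Lysosomal genes fell in 16 of 46 and rose in 3 (median -0.71), against 15.9% lower among genes of that level. The lower count was 8 without OMX replicate 2, 10 without untreated replicate 1 and 10 with library size alone. Lamp2, a membrane protein of lysosomes, averaged 10.1 ± 1.001 CPM with OMX and 21.98 ± 2.33 CPM untreated (log2 fold change -1.12 ± 0.21, adjusted p = 0.0014). Gaa, which breaks down glycogen, averaged 28.3 ± 7.52 CPM with OMX and 60.8 ± 13.4 CPM untreated (log2 fold change -1.11 ± 0.22, adjusted p = 0.00213). Manba, a mannosidase, rose: it held 30.02, 68.4 and 71.01 CPM with OMX, against 7.798, 8.99 and 12.2 CPM untreated (log2 fold change 2.55 ± 0.31, adjusted p = 7.17e-05). Of autophagy genes 8 of 42 were higher and 5 lower, against 18.4% higher and 15.9% lower among genes of that level. Tfe3, a master factor of lysosome genes, was higher (log2 fold change 1.16 ± 0.21, adjusted p = 0.00118), as was Atg7 (log2 fold change 0.93 ± 0.16, adjusted p = 0.000727). The lower autophagy count ran from 3 to 8 as libraries were left out, with 8 without OMX replicate 1 and 3 without OMX replicate 2, untreated replicate 1 or untreated replicate 2 or with library size alone.

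Defence against oxidants and the handling of metals showed more falls than rises. Of 38 glutathione, thioredoxin and NRF2 target genes 14 fell and 5 rose, against 21.4% lower among genes of that level. The lower count was 8 without OMX replicate 2, 7 without OMX replicate 3, and 9 without untreated replicate 1, without untreated replicate 2 or with library size alone. The higher count was 3 without OMX replicate 2, untreated replicate 2 or untreated replicate 3. Gsr, glutathione reductase, averaged 4.61 ± 1.23 CPM with OMX and 13.3 ± 3.19 CPM untreated (log2 fold change -1.52 ± 0.30, adjusted p = 0.0021). Osgin1, an NRF2 target that responds to oxidative stress, rose: it held 79.6, 40.8 and 45.3 CPM with OMX, against 10.9, 7.67 and 7.44 CPM untreated (log2 fold change 2.67 ± 0.28, adjusted p = 2.07e-05). Tfrc, the transferrin receptor that brings in iron, averaged 11.2 ± 3.71 CPM with OMX and 33.96 ± 7.66 CPM untreated (log2 fold change -1.60 ± 0.27, adjusted p = 0.000706). For zinc, the importer Slc39a10 held 0.395, 0.944 and 1.45 CPM with OMX, against 7.61, 9.42 and 7.204 CPM untreated (log2 fold change -3.11 ± 0.45, adjusted p = 0.000262). The zinc exporter Slc30a1 held 56, 30.1 and 35.2 CPM with OMX, against 4.55, 7.45 and 5.81 CPM untreated (log2 fold change 2.77 ± 0.28, adjusted p = 1.7e-05), and faces 1700034H15Rik (7.05 times its counts, log2 fold change 3.90). Mt1, a metallothionein that binds zinc, was higher (log2 fold change 1.25 ± 0.32, adjusted p = 0.00903), a call lost without untreated replicate 2 (log2 fold change 1.09).

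Genes of mitosis fell in 20 of 41 and rose in 1 (median -0.81), against 15.9% lower among genes of that level. Cdk1, the mitotic kinase, held 3.75, 3.02 and 2.28 CPM with OMX, against 12.3, 8.55 and 11.9 CPM untreated (log2 fold change -1.84 ± 0.31, adjusted p = 0.00075). Ccnb1, its cyclin, held 7.901, 5.29 and 6.44 CPM with OMX, against 15.6, 22.4 and 21.1 CPM untreated (log2 fold change -1.59 ± 0.25, adjusted p = 0.00048). Plk1, the polo kinase, averaged 7.903 ± 2.38 CPM with OMX and 29.5 ± 2.86 CPM untreated (log2 fold change -1.89 ± 0.25, adjusted p = 0.000116) and faces Gm44985 (8.62 times its counts, log2 fold change -1.49). OMX libraries were the lower ones in each. The 1 rise, Bora, an activator of Plk1 (log2 fold change 0.80 ± 0.28, adjusted p = 0.0393), was lost without OMX replicate 1, OMX replicate 2, untreated replicate 2 or untreated replicate 3. Its log2 fold change lay between 0.56 and 1.13 over the libraries left out, and its groups overlapped. Tubulins and septins fell in 8 of 23 and rose in 3, against 21.4% lower and 22.7% higher among genes of that level. Tubb5, the main beta-tubulin, held 89.6, 92.2 and 81.4 CPM with OMX, against 266, 316 and 307 CPM untreated (log2 fold change -1.76 ± 0.13, adjusted p = 1.37e-06). Tuba1c averaged 20.1 ± 1.36 CPM with OMX and 58.6 ± 14.2 CPM untreated (log2 fold change -1.54 ± 0.20, adjusted p = 0.000101). Septin4, a septin tied to apoptosis, went up (log2 fold change 2.02 ± 0.47, adjusted p = 0.00567).

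Genes of traffic through the nuclear pore fell in part, without a rise: of 56 genes 17 fell (median -0.32), against 21.4% of genes of that level. Kpna2, an importin alpha, held 8.099, 6.99 and 3.32 CPM with OMX, against 30.4, 37.3 and 34.6 CPM untreated (log2 fold change -2.47 ± 0.29, adjusted p = 4.61e-05). Ran, the GTPase that gives transport its direction, averaged 36.3 ± 4.02 CPM with OMX and 76.9 ± 3.04 CPM untreated (log2 fold change -1.08 ± 0.15, adjusted p = 0.000199). Xpot, which exports tRNA, averaged 12.6 ± 1.13 CPM with OMX and 28.97 ± 6.47 CPM untreated (log2 fold change -1.20 ± 0.22, adjusted p = 0.00124). Replication genes fell in 9 of 45 and rose in 2, against 15.9% lower and 18.4% higher among genes of that level. Mcm2, of the replicative helicase, averaged 28.5 ± 4.05 CPM with OMX and 59.7 ± 6.51 CPM untreated (log2 fold change -1.07 ± 0.17, adjusted p = 0.000518). Gins2, of the same helicase, rose in a row of high counts (log2 fold change 1.73 ± 0.12, adjusted p = 1.08e-06) and faces Gse1 (0.127 times its counts, log2 fold change 0.23). Ccnf, the F-box protein cyclin F, held 2.17, 2.74 and 2.08 CPM with OMX, against 12.3, 15.8 and 14.2 CPM untreated (log2 fold change -2.59 ± 0.28, adjusted p = 3.11e-05).

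Death and p53 genes did not move one way. Of 31 genes of caspases, inhibitors of apoptosis, death receptors and necroptosis 8 were higher and 4 lower, against 15.5% higher and 8.18% lower among genes of that level, and 5 entered the test through the OMX libraries alone. The higher count was 5 without OMX replicate 2 or untreated replicate 2 or with at least 50 counts in 3 libraries required. The lower count was 1 without OMX replicate 3 or untreated replicate 3, and 2 with library size alone. Fas, the death receptor, held 8.49, 6.61 and 7.48 CPM with OMX, against 0, 0.986 and 0.465 CPM untreated (log2 fold change 3.98 ± 0.66, adjusted p = 0.000649). Birc3, an inhibitor of apoptosis and NF-kB target, held 16.8, 14.9 and 11.4 CPM with OMX, against 0, 1.64 and 0.232 CPM untreated (log2 fold change 4.54 ± 0.66, adjusted p = 0.000258). In the BCL2 family 5 of 17 were higher and 5 lower, against 18.4% higher and 15.9% lower among genes of that level. Of these 17, 1 entered the test through the OMX libraries alone. The counts were 3 higher without OMX replicate 3, 2 lower without OMX replicate 2, and 3 lower without untreated replicate 1 or untreated replicate 2 or with library size alone. Bbc3, the killer protein PUMA, averaged 16.3 ± 0.429 CPM with OMX and 6.19 ± 1.86 CPM untreated (log2 fold change 1.39 ± 0.26, adjusted p = 0.00149). Of 31 p53 targets 8 were higher and 4 lower, against 18.4% higher and 15.9% lower among genes of that level. Of these 31, 2 entered the test through the OMX libraries alone. The falls numbered 2 without OMX replicate 2, without OMX replicate 3, with library size alone or with at least 50 counts in 3 libraries required. Plk2, a polo-like kinase, held 11.7, 12.3 and 13.3 CPM with OMX, against 0.743, 0.438 and 0.232 CPM untreated (log2 fold change 4.64 ± 0.40, adjusted p = 5.14e-06), whereas Ccng1, a cyclin that p53 induces, averaged 11.8 ± 0.427 CPM with OMX and 24.8 ± 6.77 CPM untreated (log2 fold change -1.06 ± 0.23, adjusted p = 0.00343). Neither gene overlaps between groups or faces an annotated gene.

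RING finger genes named Rnf rose in 11 of 56 and fell in 7, against 18.4% and 15.9% of genes of that level, with 5 to 7 rises without OMX replicate 2, OMX replicate 3, untreated replicate 2 or untreated replicate 3, and 4 falls without untreated replicate 2. Through the untreated libraries alone, 1 of the 56 entered the test. Rnf31, the catalytic subunit of the linear ubiquitin ligase, averaged 17.8 ± 4.68 CPM with OMX and 4.95 ± 0.52 CPM untreated (log2 fold change 1.85 ± 0.27, adjusted p = 0.000242). Rnf19b averaged 20.4 ± 4.703 CPM with OMX and 4.03 ± 1.24 CPM untreated (log2 fold change 2.35 ± 0.30, adjusted p = 9.47e-05). Ubiquitin-specific proteases rose in 9 of 45 and fell in 2, against 18.4% higher and 15.9% lower among genes of that level, and 1 of the 45 entered the test through the OMX libraries alone. Usp22, of the SAGA co-activator, averaged 36.4 ± 6.93 CPM with OMX and 15.6 ± 1.92 CPM untreated (log2 fold change 1.23 ± 0.20, adjusted p = 0.000602). Conjugating enzymes fell in 7 of 30 and rose in 3, against 15.9% lower and 18.4% higher among genes of that level, and 13 fell without OMX replicate 1. Ube2n, which builds ubiquitin chains that signal rather than degrade, averaged 6.36 ± 1.04 CPM with OMX and 14.3 ± 1.09 CPM untreated (log2 fold change -1.16 ± 0.25, adjusted p = 0.00312).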

How the data were processed

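Gene counts of 6 DLM8 libraries (3 OMX, 3 untreated) were used as deposited by the authors, as whole-number counts per gene. STAR, Subread and featureCounts with mm39/GRCm39 are named in the submitters' processing notes. Versions and the strand setting: not given in the sources used here. Libraries held 9099313 to 11392715 counts, of which 29.2% to 33.1% lay in rows without a symbol. In every library 71.7% to 73.7% of nonzero counts were even, a point the labels do not address. Columns without a sample numbered 0.

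Genes passing filterByExpr (17109 of 78317) were fitted with edgeR 4.0.16 in R 4.3.3 (TMM, quasi-likelihood test, Benjamini-Hochberg adjustment over all tested genes, call at adjusted p under 0.05). The same fit was also run on simulated counts, and its outcome is not given here. Alternatives were DESeq2 1.42.0, other scaling, other filters, halved counts, a replicate block, single libraries left out and genes facing no annotated gene. Facing genes were found with GENCODE M21 on GRCm38, matched by gene ID, so no coordinates of it are given. Promoters are those of RefSeq on GRCm38.p6. Intervals and bounds on low counts cover counting error only.

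Named were the 12 largest rises and 12 largest falls by log2 fold change among called genes outside the best known families (mean log2 CPM 3 or more, groups that did not overlap), and in each list up to 4 called members by smallest p in its more frequent direction, up to 2 in the other, and members singled out in counts of 5 or fewer. The members and lists were chosen with earlier results of these data known. A few genes and gene families are not reported here. Dog libraries were not used here.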

Additional observations from a re-analysis of the deposited data

How the results depend on the processing

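Of 501 named genes no log2 fold change changed sign under any alternative run, and 406 were called in all 6 fits that left out a library. Leaving out single libraries moved the genes higher between 2544 and 3682, the genes lower between 1998 and 3206, and the called members of the gene lists (903) between 681 and 997, while all 24 genes with the largest changes stayed called. When only genes facing no annotated gene were tested (8026), 1357 were higher and 1099 lower, 570 list members were called, and 15 of the 24 genes were called, since fewer genes were tested. Library size alone gave 3977 higher and 1991 lower, upper-quartile factors 3077 and 3121, DESeq2 3450 and 2830, no filter 3847 and 2927, and at least 50 counts in 3 libraries 2774 and 2383. With a replicate block 3629 were higher and 3217 lower and 1022 list members were called. The replicate numbers were not taken as a pairing, since the labels do not give them that meaning. Libraries with the same number deviated together with r of 0.203, 0.037 and 0.114, and those with different numbers with r of -0.164 to 0.062. OMX replicate 2 correlated best with untreated replicate 3. The second principal component (12.6% of the variance) put replicates 1, 2 and 3 in the same order in both groups. Whether the numbers mark a shared batch was not tested. Among 100 list directions with 4 or more calls, 42 moved by over 1.5 times without 1 library. Depth limits the low rows: of the 17109 genes 570 passed the filter through the OMX libraries alone and 84 through the untreated libraries alone.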
